A study of Mus musculus with 30 samples.

Results

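This account describes the mRNA of 6 matrix metalloproteinase genes and 2 genes for their tissue inhibitors in mouse tumour-associated macrophages: Mmp8, Mmp9, Mmp12, Mmp13, Mmp14, Mmp19, Timp1 and Timp2. They are the 8 rows of the raw count table, of 46603 genes in all, whose gene name is one of these symbols, and all 8 passed the filter on low counts in every fit. The macrophages came from subcutaneous tumours of the lung carcinoma line 3LL-R grown in wild-type C57BL/6 mice and were sorted by their surface level of MHC class II into MHC-IIhi and MHC-IIlo cells. Each subset was lysed directly after sorting (fresh, 30000 cells), or kept in culture for 24 h without lactate or with 20 mM sodium L-lactate (250000 cells each), which gave 6 groups of 5 RNA-seq libraries. The age and sex of the mice, whether animals were pooled and the medium used in culture are not given in the sources used here. The sort sets the subsets apart by 1 surface marker alone, so each subset may be a mixture.

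Matrix metalloproteinases are zinc-dependent enzymes that cut collagens, elastin, gelatin and other proteins of the extracellular matrix. They are made as inactive precursors whose prodomain is removed by other proteases, and the tissue inhibitors, the TIMPs, block the active enzymes by binding at the catalytic site. In tumours, macrophages are a known source of these enzymes, which are studied for their part in matrix breakdown, vessel growth and invasion. An mRNA level says nothing of how much enzyme is secreted, activated or inhibited.

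The enzyme genes Mmp13, Mmp12 and Mmp8 lie in 1 cluster of metalloproteinase genes on chromosome 9 (build GRCm38), on the plus strand, at 7272514 to 7283333, 7344381 to 7369499 and 7558429 to 7568486. These 3 genes had their highest mean level in MHC-IIhi cells cultured with lactate and their mean lactate effects are tested below, so the 250 bases before their start sites are shown. Capitals mark exact matches to the AP-1 motif TGANTCA (N is any base) and to the PEA3 (Ets family) motif AGGAAG or its reverse complement CTTCCT, both searched on both strands and not overlapping each other here. The sequences are RefSeq's, from its GRCm38.p6 table, 5′ to 3′.
Mmp13 promoter, chr9:7272264-7272513, plus strand: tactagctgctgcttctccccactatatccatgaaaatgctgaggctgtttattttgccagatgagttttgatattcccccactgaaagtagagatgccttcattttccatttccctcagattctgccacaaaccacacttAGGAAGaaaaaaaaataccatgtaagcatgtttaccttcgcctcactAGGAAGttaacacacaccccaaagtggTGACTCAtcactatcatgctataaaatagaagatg
Mmp12 promoter at the second of its start sites in the table, chr9:7347124-7347373, plus strand: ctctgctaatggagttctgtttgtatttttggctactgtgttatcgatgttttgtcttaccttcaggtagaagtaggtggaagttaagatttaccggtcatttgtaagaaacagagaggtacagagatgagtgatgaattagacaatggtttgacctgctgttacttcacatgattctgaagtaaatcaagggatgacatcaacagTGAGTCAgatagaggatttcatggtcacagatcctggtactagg
Mmp8 promoter, chr9:7558179-7558428, plus strand: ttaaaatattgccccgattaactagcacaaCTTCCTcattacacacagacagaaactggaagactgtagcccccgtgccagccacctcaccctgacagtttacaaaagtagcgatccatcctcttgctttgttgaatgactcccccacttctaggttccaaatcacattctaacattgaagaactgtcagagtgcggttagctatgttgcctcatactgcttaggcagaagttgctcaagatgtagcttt
The window searched ran from 250 bases before to 50 bases after the start, and the table held 7 such promoters for 6 of the 8 genes, without Mmp9 and Mmp19. An AP-1 match was found in the Mmp13 promoter, beginning 35 bases before the start (position -35), and in the printed Mmp12 promoter, at -44. There was no AP-1 match at the first Mmp12 start site or in Mmp8, Mmp14, Timp1 or Timp2. The same motif was found in 7.8% of all 32851 promoters in the table. The PEA3 motif, held by 35.4% of all promoters, was matched at -109 and -62 in Mmp13, at -220 in Mmp8 and at -87 before the first Mmp12 start site. Mmp14 had a PEA3 match at -209, Timp1 had 3 and Timp2 had none. The hypoxia response motif ACGTG, on both strands, was matched in Mmp14 and Timp1 and is held by 19.6% of all promoters. These matches describe letters in the windows and were not tied to binding.

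The remaining genes lie apart from the cluster. Mmp14 is on chromosome 14 at 54431612 to 54441265 and Mmp9 on chromosome 2 at 164940780 to 164955850, both on the plus strand. Mmp19 is on chromosome 10 at 128790953 to 128800824 and Timp1 on chromosome X at 20870166 to 20874735, also on the plus strand, and Timp2 is on the minus strand of chromosome 11 at 118301069 to 118355740. Of the 8, 4 overlap another annotated gene: Timp1 lies inside Syn1, the end of Mmp19 overlaps Tmem198b and the end of Mmp12 overlaps Mmp1b, each on the other strand, and BC100451 lies inside Timp2 on the same strand. Whether reads were counted by strand is not given in the sources used here, so the values of Timp1, Mmp19 and Mmp12 are uncertain to that extent. Counting by strand would not set BC100451 apart from Timp2, so Timp2 is uncertain either way. Syn1 had 567 to 2962 counts per library and Tmem198b 195 to 669, while Mmp1b had 0 to 75 and BC100451 7 to 148.

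The 30 libraries held 16913250 to 31481548 counts. All 11 macrophage markers were found in every group, and their summed level was 19458 to 29312 CPM (counts scaled to a common library size) in the fresh libraries against 2.46 to 13.7 CPM for 8 T and NK cell markers. Other lists had higher sums in fresh cells. The 7 monocyte markers summed to 1116 to 1478 CPM in MHC-IIhi and to 342 to 669 CPM in MHC-IIlo libraries. The 7 epithelial and tumour markers summed to 506 to 580 CPM in MHC-IIhi and to 138 to 281 CPM in MHC-IIlo libraries. These sums rest on few genes, since just 2 of the 7 passed the filter in fresh cells. Of these, 1 was called, Cdh1, which was lower in MHC-IIlo. Krt5 and Krt14 were at 0 in fresh MHC-IIhi, and Krt18, Epcam, Krt5 and Krt14 in fresh MHC-IIlo. In principal components of all genes, the first (50.1% of the variance) separated fresh from cultured libraries and the second (16.3%) separated the subsets. One library, number 5 of lactate-treated MHC-IIlo in the count table, stood apart: its median correlation with the libraries of its group was 0.9620, against at least 0.9733 for every other library, and its macrophage marker sum was the lowest of all at 4912 CPM. Some results that rest on it are given with and without it. Cultured libraries are called by the numbers of their columns (3 to 7 for MHC-IIhi without lactate, and 1 and 3 to 6 for the others), and values are listed in that order.

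Ranked by RPKM, the counts scaled to library size and transcript length, Mmp12, the macrophage metalloelastase, was the highest of the 8 genes in fresh MHC-IIhi cells at 594.7 ± 86.8 RPKM (SD, n = 5, as for all group values below). Mmp13, a collagenase, was the highest in fresh MHC-IIlo cells at 636.3 ± 201.9 RPKM. Among 14015 genes, Mmp12 ranked 82 in fresh MHC-IIhi cells and 20 in MHC-IIhi cells cultured with lactate, where Mmp13 ranked 24 and Mmp8, the neutrophil collagenase, 51. Timp1 was the lowest of the 8 in fresh cells, at 29.1 ± 3.99 RPKM in MHC-IIhi and 25.2 ± 2.83 RPKM in MHC-IIlo. Timp1 ranked between 1654 and 2360 in all 6 groups.

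**Figure D1:**
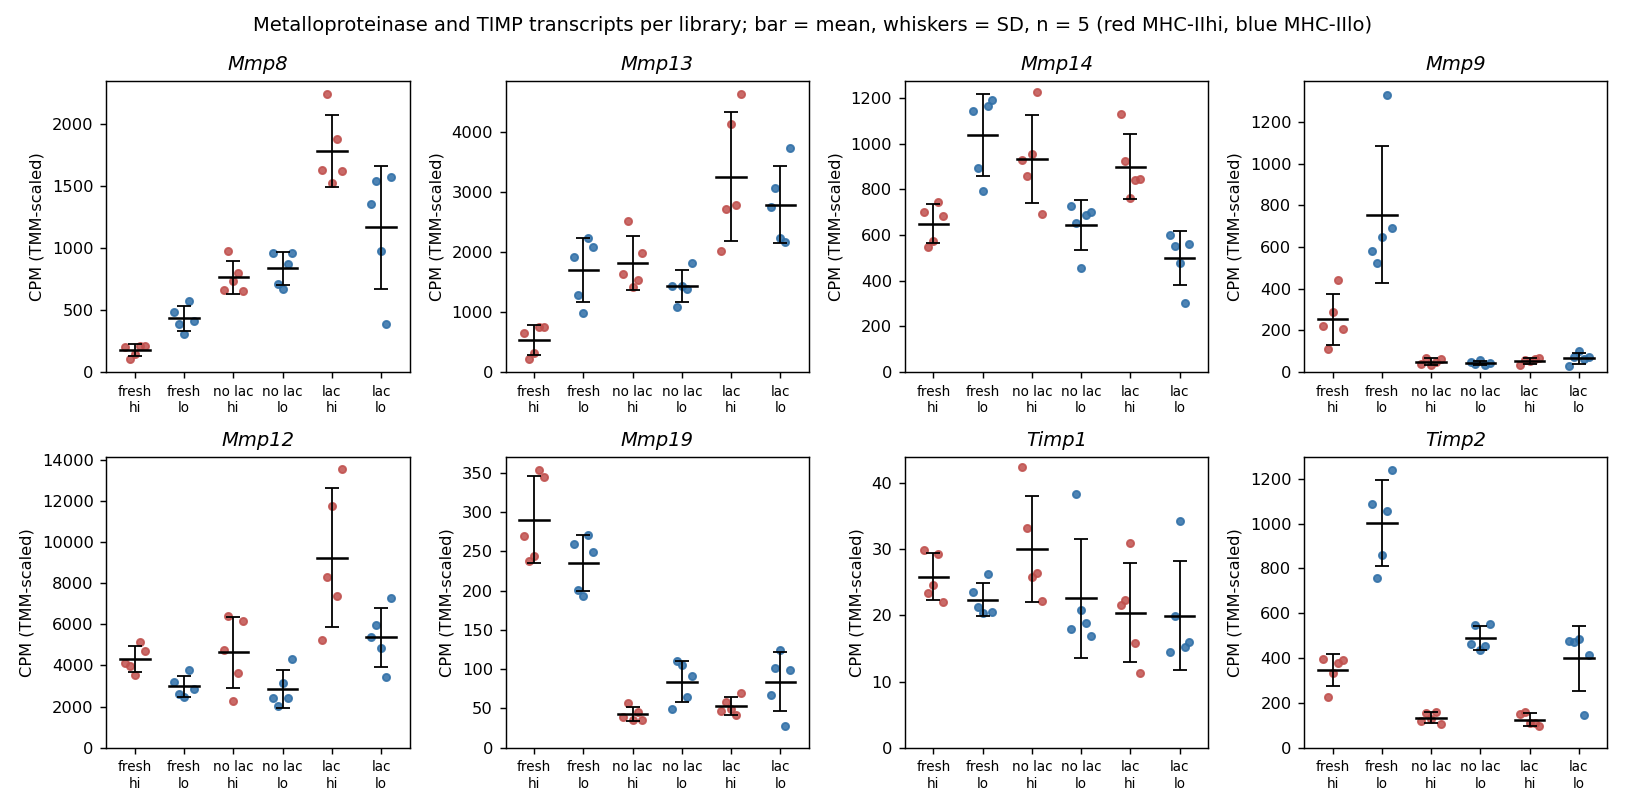
Level of each of the 8 genes in every library, in CPM with TMM-scaled library sizes (vertical axes differ and start at 0), for fresh cells and cells cultured without (no lac) or with lactate (lac), MHC-IIhi (hi, red) and MHC-IIlo (lo, blue); points are libraries, bars means and whiskers SD, n = 5. Mmp8 is lowest in fresh MHC-IIhi and highest with lactate, Mmp9 and Mmp19 are highest in fresh cells, and Timp1 stays between 11.3 and 42.4 CPM in all 30 libraries.

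The first comparison was between the subsets as they came from the tumour. In fresh cells, 5 of the 8 genes were higher in MHC-IIlo than in MHC-IIhi macrophages, 4 enzymes and the inhibitor Timp2, and 1 enzyme, Mmp12, was lower (adjusted p under 0.05, edgeR's quasi-likelihood test with Benjamini-Hochberg adjustment over all genes tested, 2-sided, as for every adjusted p below unless another tool is named). These 6 of 8 stand beside 29.2% of 12787 genes called in the same test (1790 genes higher and 1947 lower). The median log2 difference of the 8 genes was 0.99, against 0.00 over all genes. With each of the 10 fresh libraries left out in turn, 6 of the 8 were called each time.

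Among the collagenases, Mmp13 was at 1913, 1280, 989.8, 2235 and 2093 CPM in the 5 fresh MHC-IIlo libraries and at 652.5, 216.5, 322.9, 749.3 and 746.0 CPM in the 5 MHC-IIhi libraries. The lowest MHC-IIlo library was above the highest MHC-IIhi library, and Mmp13 was 3.18-fold higher (log2 difference 1.67 ± 0.33 SE, adjusted p = 0.00199). Mmp8, best known from neutrophil granules, was at 481.3, 391.7, 303.7, 574.8 and 413.0 CPM in MHC-IIlo and at 204.6, 107.5, 143.4, 212.9 and 212.2 CPM in MHC-IIhi. The Mmp8 groups did not overlap either, and the difference was 1.30 ± 0.19 on the log2 scale (adjusted p = 0.000287). Replicate 2 was the lowest MHC-IIhi library for both genes and replicate 3 the lowest MHC-IIlo library.

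Mmp9, or gelatinase B, cuts denatured collagen and basement membrane collagen. It was at 578.7, 524.2, 649.9, 1331 and 691.5 CPM in fresh MHC-IIlo and at 220.5, 109.4, 288.1, 440.8 and 208.2 CPM in fresh MHC-IIhi libraries. Replicate 4 was the highest library of both groups, and the groups did not overlap. Mmp9 was 2.98-fold higher in MHC-IIlo (log2 difference 1.58 ± 0.33, adjusted p = 0.00307).

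Mmp14 encodes a membrane-anchored enzyme that cuts collagen at the cell surface and activates the precursor of Mmp2 together with Timp2. It was at 1142, 895.3, 794.1, 1166 and 1189.8 CPM in fresh MHC-IIlo and at 701.9, 546.4, 573.0, 746.2 and 683.7 CPM in fresh MHC-IIhi libraries. The gap between the lowest of the one and the highest of the other was narrow, and the difference was 1.60-fold (log2 0.67 ± 0.12, adjusted p = 0.00104). Timp2 ranged from 758.6 to 1242 CPM in the MHC-IIlo libraries and from 225.7 to 396.5 CPM in the MHC-IIhi libraries, without overlap, a log2 difference of 1.54 ± 0.16 (adjusted p = 1.91e-05). Mmp14 and Timp2 were thus both higher in the same subset, and their substrate gene Mmp2 had a mean of 1.70 CPM in the MHC-IIlo libraries and of 0.483 CPM in the MHC-IIhi libraries (adjusted p = 0.00532). Mmp2 is named for its role beside Mmp14, after its values were seen.

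Mmp12 went the other way. It was at 3204, 2637, 2463, 3761 and 2849 CPM in fresh MHC-IIlo and at 4135, 3969, 3559.8, 5156 and 4701 CPM in fresh MHC-IIhi libraries. Only MHC-IIlo replicate 4 reached into the MHC-IIhi range, and Mmp12 was lower in MHC-IIlo by a log2 difference of -0.53 ± 0.12 (adjusted p = 0.00625). The call was lost with all 30 libraries in 1 fit (adjusted p = 0.159) and in limma on the deposited FPKM values (adjusted p = 0.0515 to 0.0699), in which Mmp12 takes just 2 distinct values over the 30 libraries. Mmp12 made up 51.3% ± 5.55 of the summed RPKM of the 6 enzyme genes in fresh MHC-IIhi and 24.0% ± 2.48 in fresh MHC-IIlo cells.

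Mmp19 and Timp1 did not pass the test in fresh cells. Mmp19, which cuts basement membrane proteins, ranged over 193.3 to 271.5 CPM in the MHC-IIlo libraries and over 238.4 to 354.3 CPM in the MHC-IIhi libraries (log2 difference -0.30 ± 0.13, adjusted p = 0.0919). With the replicate number as a block, Mmp19 passed (log2 -0.30, adjusted p = 0.00137), with plain library totals (adjusted p = 0.0231) and in the 3 limma fits on FPKM (adjusted p = 0.0196 to 0.0260). Timp1, an inhibitor of secreted metalloproteinases that also binds the Mmp9 precursor, ranged over 20.4 to 26.2 CPM in the MHC-IIlo libraries and over 22.1 to 29.9 CPM in the MHC-IIhi libraries (adjusted p = 0.174).

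Markers of other cells also differed between the fresh subsets. Of 12 neutrophil markers, 6 could be tested and 4 were higher in MHC-IIlo, among them S100a8 (15.95 against 8.08 CPM on average). The list summed to 94.9 to 161 CPM in MHC-IIlo libraries, against 58.3 to 76.2 CPM in MHC-IIhi, and Camp was at 0 in all 10. Of 11 fibroblast markers, 9 could be tested and 5 were higher in MHC-IIlo, with sums of 37.6 to 129 CPM against 23.3 to 73.7 CPM. Of the 11 macrophage markers, 7 were higher in MHC-IIlo as well. Other lists were lower in MHC-IIlo, as Mmp12 was: 7 of 7 dendritic cell markers that could be tested (median log2 -2.30), 4 of 7 monocyte markers (median -1.04), 2 of 4 T and NK cell markers and 2 of 3 B cell markers. The dendritic cell list summed to 20.1 to 36.4 CPM in the MHC-IIlo libraries, with Xcr1 at 0, and to 108 to 137 CPM in the MHC-IIhi libraries. The part of these cells in the levels of the 8 genes was not tested, and in bulk samples fewer cells of a type and less RNA per cell cannot be told apart.

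**Figure D2:**
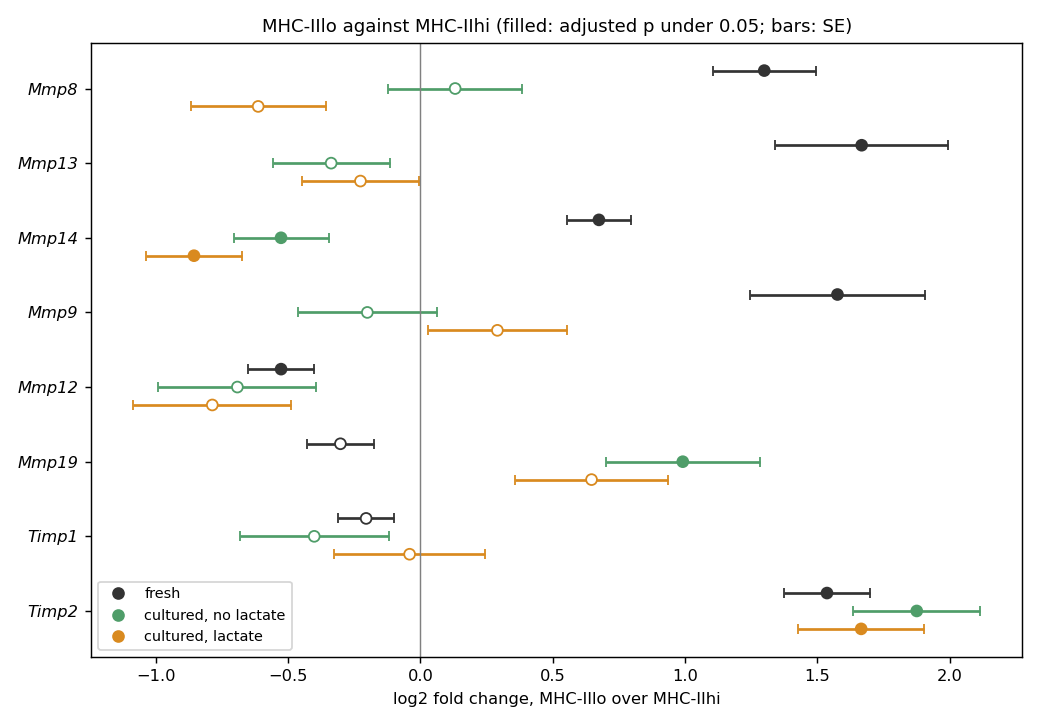
Log2 fold change of MHC-IIlo over MHC-IIhi for each gene (horizontal axis; whiskers are SE) in fresh cells (black), after culture without lactate (green) and with lactate (orange), 5 libraries against 5; filled points passed an adjusted p of 0.05. Timp2 is higher in MHC-IIlo in all 3 comparisons (log2 1.54, 1.88 and 1.67), whereas Mmp14 changes side from 0.67 in fresh to -0.53 and -0.86 in cultured cells.

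After 24 h in culture without lactate, the pattern between the subsets was different. Timp2 and Mmp19 were higher in MHC-IIlo, Mmp14 was lower, and Mmp8, Mmp9, Mmp12, Mmp13 and Timp1 did not pass the test. These 3 of 8 stand beside 20.8% of 13593 genes called (9.20% higher and 11.6% lower). The median log2 difference of the 8 genes was -0.27, against -0.01 over all genes. Mmp13 (log2 -0.34) had a larger difference and passed in the 3 limma fits on FPKM (log2 -0.99, adjusted p = 0.0337 to 0.0409). In the deposited FPKM values Mmp13 takes just 13 distinct values over the 30 libraries. Mmp12 passed without MHC-IIhi library 5 (log2 -0.87, adjusted p = 0.0364).

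Timp2 was at 462.8, 546.7, 435.8, 454.2 and 551.3 CPM in MHC-IIlo and at 121.1, 156.4, 126.3, 161.1 and 106.6 CPM in MHC-IIhi cells cultured without lactate. The groups were far apart, and Timp2 was 3.67-fold higher in MHC-IIlo (log2 1.88 ± 0.24, adjusted p = 7.32e-06). Mmp19 was at 48.8 to 110.3 CPM in the MHC-IIlo libraries, against 35.5 to 57.0 CPM in MHC-IIhi (log2 0.99 ± 0.29, adjusted p = 0.0179), with overlap, and missed the threshold without MHC-IIlo library 3 (0.0562) or 4 (0.0505). Mmp14 was at 728.1, 650.7, 455.5, 687.1 and 700.2 CPM in MHC-IIlo and at 930.8, 857.2, 956.5, 1228.5 and 694.0 CPM in MHC-IIhi. Mmp14 overlapped between the groups and its call (log2 -0.53 ± 0.18, adjusted p = 0.0415) was lost under 12 of 29 alternatives, where adjusted p reached 0.123.

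With lactate in the medium, Timp2 and Mmp14 were again the genes called, 2 of 8 beside 22.4% of 13593 genes (9.13% higher and 13.3% lower). Mmp14 was at 598.9, 551.6, 476.9, 301.5 and 563.1 CPM in MHC-IIlo and at 1132, 923.8, 761.6, 839.5 and 844.5 CPM in MHC-IIhi cells. No MHC-IIlo library reached the MHC-IIhi range, and Mmp14 was 1.81-fold lower in MHC-IIlo (log2 -0.86 ± 0.18, adjusted p = 0.00164). Without MHC-IIlo library 5, its lowest, the log2 difference was -0.71, and Mmp14 still passed. Timp2 was at 476.8, 472.5, 486.3, 144.4 and 415.5 CPM in MHC-IIlo, and the same library 5 alone fell into the MHC-IIhi range of 95.3 to 160.9 CPM. Timp2 was 3.17-fold higher in MHC-IIlo (log2 1.67 ± 0.24, adjusted p = 3.13e-05), and 1.89 on the log2 scale without library 5.
Mmp19 (log2 0.65 ± 0.29, adjusted p = 0.116) passed without library 5 (log2 0.88, adjusted p = 0.00575), in which it was at 27.2 CPM against 67.6 to 124.0 CPM in the other 4 MHC-IIlo libraries. Mmp8 (log2 -0.61 ± 0.25, adjusted p = 0.0903) and Mmp12 (log2 -0.79 ± 0.30, adjusted p = 0.0635) did not pass. Mmp8 passed in the 3 limma fits on FPKM (log2 -1.07, adjusted p = 0.00364 to 0.00480). Over all 29 alternatives, its log2 difference ranged from -1.07 to -0.38. Mmp12 passed under 5 alternatives (adjusted p = 0.0224 to 0.0422): DESeq2, all 30 libraries in 1 fit, the replicate block, and without no-lactate MHC-IIhi library 5 or lactate MHC-IIhi library 1.
Markers of other cells differed between the cultured subsets too, where 11.6% of all genes were lower in MHC-IIlo without and 13.3% with lactate. Of the monocyte markers 7 of 7, and of the dendritic cell markers 6 of 6 that could be tested, were lower in MHC-IIlo, without lactate (median log2 -2.34 and -4.30) and with it (-2.88 and -4.25). The dendritic cell list summed to 5.38 to 14.4 CPM in the cultured MHC-IIlo libraries and to 108 to 294 CPM in the cultured MHC-IIhi libraries. Their part in the subset differences of Mmp14, Mmp19 and Timp2 was not tested.

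The next comparison was culture itself, cells kept 24 h without lactate against fresh cells of the same subset. Fresh and cultured libraries also differ in cell number and in how the cells were lysed, so culture and these steps cannot be told apart. In MHC-IIhi cells Mmp8, Mmp13 and Mmp14 rose and Mmp9, Mmp19 and Timp2 fell, 6 of 8 beside 62.0% of 13682 genes called (31.6% higher and 30.4% lower). In MHC-IIlo cells Mmp8 rose and Mmp9, Mmp14, Mmp19 and Timp2 fell, 5 of 8 beside 57.5% (27.6% higher and 29.9% lower). Both shares of all genes are high, and all these calls held under each of 29 alternatives.

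Mmp9 had the largest change of the 8 genes in MHC-IIlo cells. Against the fresh values of 524.2 to 1331 CPM given above, it was at 49.7, 37.2, 55.4, 33.5 and 42.6 CPM in cultured MHC-IIlo libraries. This was 17.2-fold lower (log2 -4.11 ± 0.34, adjusted p = 1.08e-09). In MHC-IIhi cells, Mmp9 was at 38.5, 68.6, 33.3, 47.2 and 64.4 CPM after culture and fell 5.02-fold (log2 -2.33 ± 0.31, adjusted p = 1.36e-06). After culture, the 2 subsets overlapped in Mmp9. The fall differed between the subsets by -1.78 ± 0.42 on the log2 scale (interaction, adjusted p = 0.00672).

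Mmp19 showed the opposite order. In MHC-IIhi cells it went from 269.2, 238.4, 244.5, 354.3 and 345.2 CPM fresh to 38.7, 57.0, 35.5, 46.1 and 35.8 CPM in culture, and in MHC-IIlo cells from 259.8, 200.9, 193.3, 271.5 and 249.7 to 48.8, 110.3, 105.3, 64.9 and 91.4 CPM. Neither subset's fresh and cultured libraries overlapped. The log2 changes were -2.76 ± 0.21 in MHC-IIhi and -1.47 ± 0.20 in MHC-IIlo (adjusted p = 1.88e-10 and 1.42e-06), and they differed by 1.29 ± 0.27 (interaction, adjusted p = 0.00276). Timp2 fell in both subsets, by 1.36 on the log2 scale in MHC-IIhi and by 1.02 in MHC-IIlo (adjusted p = 1.99e-07 and 9.62e-06). The difference between the Timp2 changes was 0.33 ± 0.22 and did not pass (adjusted p = 0.352).

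Of the collagenase genes, Mmp8 rose in both subsets and Mmp13 in MHC-IIhi cells. Mmp8 in MHC-IIhi went from 107.5 to 212.9 CPM in fresh libraries to 661.6, 980.6, 733.9, 798.4 and 658.2 CPM in culture, a 4.37-fold rise (log2 2.13 ± 0.19, adjusted p = 4.42e-09). In MHC-IIlo, Mmp8 was at 964.8, 714.4, 673.8, 870 and 959.4 CPM in culture and rose 1.94-fold (log2 0.96 ± 0.19, adjusted p = 0.000167). The Mmp8 levels of the subsets overlapped after culture, and the rise differed between them (interaction -1.17 ± 0.26, adjusted p = 0.00442).
Mmp13 in MHC-IIhi went from 216.5 to 749.3 CPM fresh to 1634, 2519, 1412, 1536 and 1989 CPM in culture, a log2 change of 1.76 ± 0.29 (adjusted p = 2.27e-05). In MHC-IIlo, Mmp13 was at 1437, 1088, 1442, 1380.3 and 1825 CPM in culture, all 5 within the fresh range (log2 -0.24 ± 0.29, adjusted p = 0.488). The Mmp13 changes differed by -2.01 ± 0.41 between the subsets (interaction, adjusted p = 0.00199).

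Mmp14 was the gene of the 8 that rose in one subset and fell in the other. Its log2 change was 0.53 ± 0.15 in MHC-IIhi (adjusted p = 0.00511) and -0.68 ± 0.15 in MHC-IIlo (adjusted p = 0.000673). MHC-IIhi cultured libraries at 694.0 to 1228.5 CPM overlapped their fresh counterparts at 546.4 to 746.2 CPM, and MHC-IIlo cultured libraries at 455.5 to 728.1 CPM lay below the fresh range of 794.1 to 1189.8 CPM. The interaction was -1.21 ± 0.22 (adjusted p = 0.000673). In all, 5 of the 8 genes changed differently in the 2 subsets, beside 14.3% of 13682 genes (6.03% with a higher and 8.27% with a lower change in MHC-IIlo). For Mmp8, Mmp9, Mmp13 and Mmp14 the change was lower in MHC-IIlo, the subset in which each was higher when fresh. The interaction is the cultured subset difference minus the fresh one, from the same fresh libraries. The match is thus not a separate result.

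Mmp12 and Timp1 did not pass in either subset. Mmp12 had log2 changes of 0.11 ± 0.23 in MHC-IIhi and -0.06 ± 0.23 in MHC-IIlo cells (adjusted p = 0.692 and 0.854). Timp1 had log2 changes of 0.22 ± 0.20 and 0.02 ± 0.20 (adjusted p = 0.338 and 0.935).
Marker genes moved in both directions with culture. Of the 11 macrophage markers, 4 rose and 7 fell in MHC-IIhi, and 3 rose and 7 fell in MHC-IIlo, beside the shares of all genes given above. The median log2 change of the list was -1.70 in MHC-IIhi and -1.33 in MHC-IIlo. Among the 4 that rose in MHC-IIhi was Fcgr1, an Fc receptor gene, from 305 to 1525 CPM on average. In MHC-IIhi the sum of the list was 19458 to 26716 CPM in fresh libraries and 6631 to 14314 CPM after culture without lactate. In MHC-IIlo it was 23520 to 29312 CPM in fresh libraries and 11374 to 15172 CPM after culture without lactate. Of the 6 neutrophil markers that could be tested, 1 rose and 4 fell in MHC-IIhi, and 0 rose and 4 fell in MHC-IIlo. The median log2 change of these 6 was -5.45 in MHC-IIhi and -4.95 in MHC-IIlo. The neutrophil sum had a median of 63.4 CPM in fresh and 65.9 CPM in cultured MHC-IIhi cells (40.8 to 98.3 CPM), and of 108.6 and 73.7 CPM in MHC-IIlo cells. These values stand beside the fall of Mmp9 and the rise of Mmp8, 2 genes of neutrophil granules, and their part in either was not tested.
Fibroblast markers differed between the subsets in their change with culture, as Mmp14 did. Of 10 that could be tested, 3 rose and 0 fell in MHC-IIhi, 2 rose and 6 fell in MHC-IIlo, and 7 had a lower change in MHC-IIlo by the interaction test (median log2 -2.75 over the 10, beside 8.27% of all genes). Their sum was 42.6 to 120 CPM in cultured MHC-IIhi and 42.0 to 79.0 CPM in cultured MHC-IIlo libraries. Their part in the change of Mmp14 was not tested.

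**Figure D3:**
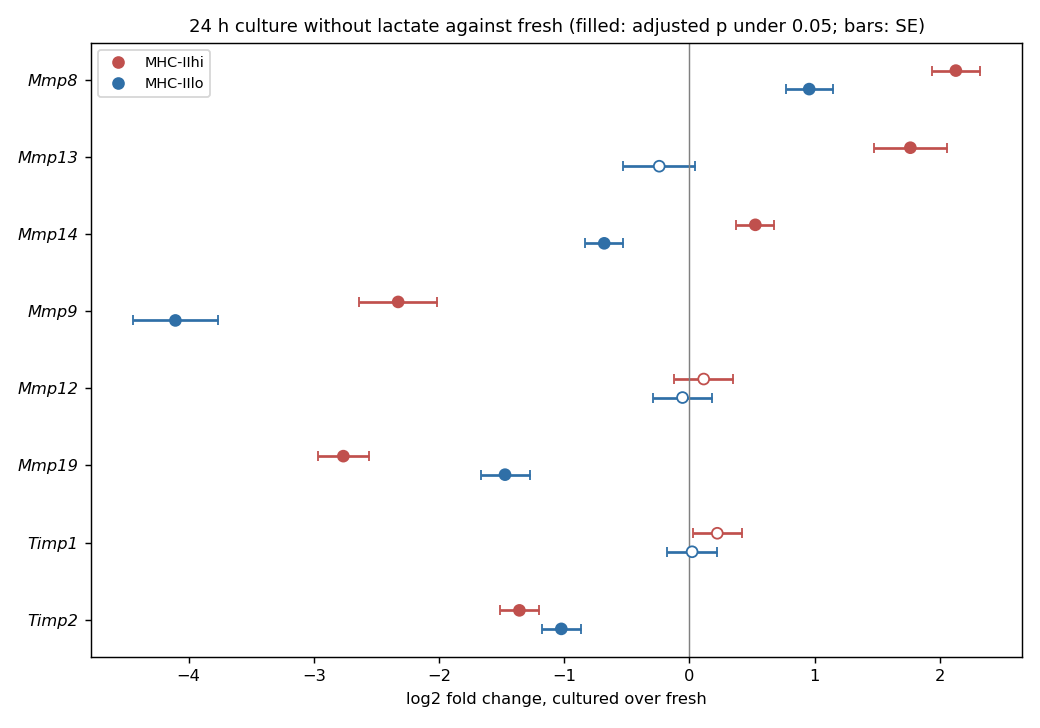
Log2 fold change of cells cultured 24 h without lactate over fresh cells (horizontal axis; whiskers are SE) for each gene in MHC-IIhi (red) and MHC-IIlo (blue), 5 libraries against 5; filled points passed an adjusted p of 0.05. Mmp9, Mmp19 and Timp2 lie left of 0 in both subsets, while Mmp14 lies at 0.53 in MHC-IIhi and -0.68 in MHC-IIlo.

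The comparison that the lactate arm was made for is between cultures with and without 20 mM lactate. Few genes of the whole table were called, 0.250% of 13593 in MHC-IIhi (0.206% higher and 0.0441% lower) and 1.49% in MHC-IIlo cells (0.905% higher and 0.581% lower). Among the 8 genes, Mmp8 rose in MHC-IIhi and Mmp13 rose in MHC-IIlo, 1 of 8 in each. The median log2 difference of the 8 was 0.23 and 0.24, against -0.01 and 0.01 over all genes.

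Mmp8 in MHC-IIhi cells was at 1630, 2243, 1530, 1884 and 1625 CPM with lactate, against 658.2 to 980.6 CPM without. No library with lactate came near the range without it, and the rise was 2.34-fold (log2 1.23 ± 0.26, adjusted p = 0.0472). The adjusted p lay close to the threshold: the call was lost under 21 of 29 alternatives, where adjusted p reached 0.156, with log2 values from 1.12 to 1.36 over all 29. In MHC-IIlo cells, Mmp8 was at 1355, 1545, 981.1, 384.9 and 1575 CPM with lactate and 673.8 to 964.8 CPM without. The values of 4 libraries were above that range and that of library 5 was below it (log2 0.48 ± 0.25, adjusted p = 0.332). Without library 5, the Mmp8 difference was 0.72 and passed (adjusted p = 0.0406).

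Mmp13 in MHC-IIlo cells was at 2757, 3073, 2234, 2165 and 3730.1 CPM with lactate, against 1088 to 1825 CPM without. The groups did not overlap and Mmp13 was 1.95-fold higher (log2 0.96 ± 0.22, adjusted p = 0.0367), a call lost under 9 of 29 alternatives (adjusted p up to 0.0966). In MHC-IIhi cells, Mmp13 was at 2024, 2718, 4134, 2791 and 4632 CPM with lactate and 1412 to 2519 CPM without, a log2 difference of 0.85 ± 0.22 (adjusted p = 0.153), which passed in DESeq2 (adjusted p = 0.0194). There, 4 of 5 libraries with lactate exceeded all those without.

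Per length, Mmp12 had the highest mean level of the 8 genes in MHC-IIhi cells with lactate (1278 RPKM), while Mmp13 was above it in MHC-IIlo cells (1044 against 742.6 RPKM). In MHC-IIhi cells it was at 5219, 8307, 11771, 7379.8 and 13571 CPM, against 4763, 6384, 2254, 3629 and 6142 CPM without lactate. In MHC-IIlo cells it was at 5369, 5968, 4829, 3419 and 7285 CPM, against 2399, 2011, 3132, 2425 and 4320 CPM. In both subsets 4 of 5 libraries with lactate were above the range without it, and the log2 differences of 1.01 ± 0.30 and 0.91 ± 0.30 did not pass (adjusted p = 0.228 and 0.1125). Both passed in DESeq2 (adjusted p = 0.04997 in MHC-IIhi and 0.0356 in MHC-IIlo) and with the replicate block (0.0458 and 0.0262), and the MHC-IIlo difference also with all 30 libraries in 1 fit (0.0474).

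Since Mmp8, Mmp12 and Mmp13 were higher with lactate on average in both subsets, the mean of the 2 lactate effects was tested in the same fit, a test added after these values were seen. By it Mmp8, Mmp12 and Mmp13 rose, 3 of 8 beside 3.31% of 13593 genes (2.05% higher and 1.26% lower). The mean log2 effects were 0.86 ± 0.18 for Mmp8, 0.96 ± 0.21 for Mmp12 and 0.91 ± 0.16 for Mmp13 (adjusted p = 0.0125, 0.0163 and 0.00327). With any 1 of the 20 libraries left out, the count was 3 of 8. Mmp8 and Mmp13 passed under all 29 alternatives and Mmp12 under 26, the exceptions being the 3 fits on FPKM values (adjusted p = 0.161 to 0.181).

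No gene of the 8 had a lactate effect that differed between the subsets. The interaction was -0.74 ± 0.36 for Mmp8, -0.09 ± 0.42 for Mmp12 and 0.11 ± 0.31 for Mmp13 (adjusted p = 0.666, 0.964 and 0.935). These standard errors are wide, and the values do not show that the subsets respond alike. Over all 13593 genes, edgeR called 0 for this interaction (0%), with 1018 at an unadjusted p under 0.05, and DESeq2 called 3 and limma on FPKM 0. Among the 8 genes 0 had an unadjusted p under 0.05 in edgeR.
Mmp9, Mmp14, Mmp19, Timp1 and Timp2 did not pass in either subset. Mmp9 in MHC-IIlo had a log2 difference of 0.61 ± 0.26 (adjusted p = 0.226; 0.80 and 0.0432 without lactate MHC-IIlo library 1), Timp1 in MHC-IIhi -0.54 ± 0.28 (adjusted p = 0.545) and Mmp14 in MHC-IIlo -0.37 ± 0.18 (adjusted p = 0.290). Timp2 was at 95.3 to 160.9 CPM with and 106.6 to 161.1 CPM without lactate in MHC-IIhi cells.

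**Figure D4:**
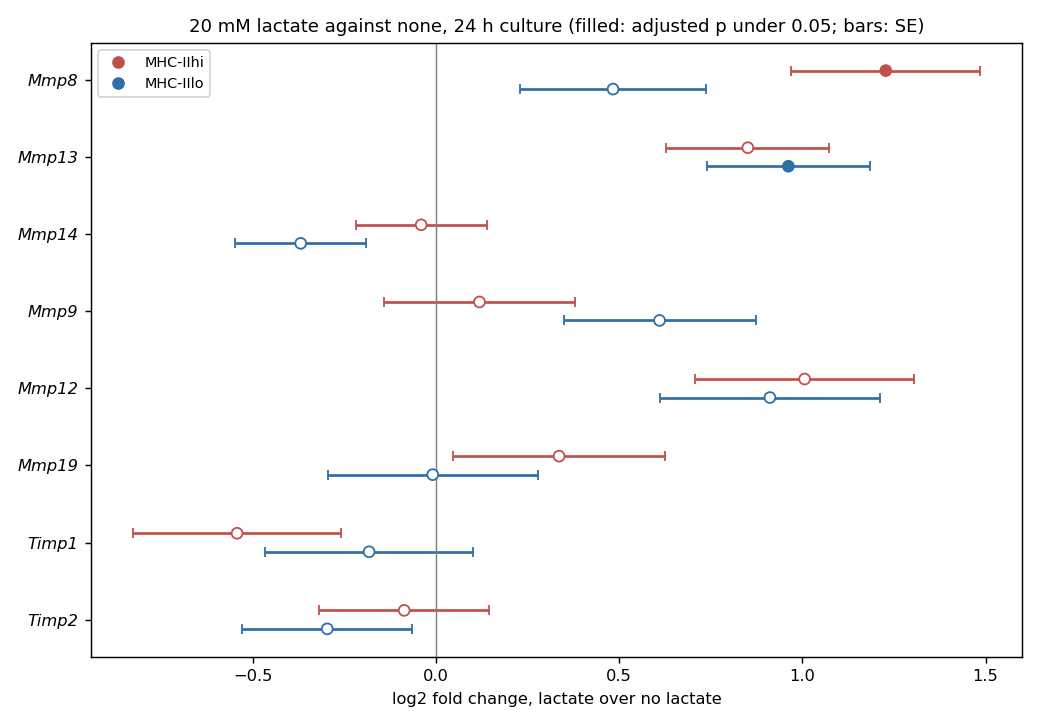
Log2 fold change of cultures with over cultures without 20 mM lactate (horizontal axis; whiskers are SE) for each gene in MHC-IIhi (red) and MHC-IIlo (blue) cells, 5 libraries against 5; filled points passed an adjusted p of 0.05. Mmp8, Mmp12 and Mmp13 lie between 0.48 and 1.23 in both subsets, and only Mmp8 in MHC-IIhi and Mmp13 in MHC-IIlo are filled.

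Summed per length, the 6 enzyme genes stood far above the 2 inhibitor genes in every library. The ratio of the summed RPKM of the enzymes to that of Timp1 and Timp2 was 10.01 ± 1.25 in fresh MHC-IIhi and 6.19 ± 0.979 in fresh MHC-IIlo cells, with ranges of 8.48 to 11.4 and 5.17 to 7.69. In culture without lactate it was 28.01 ± 7.32 in MHC-IIhi and 9.80 ± 2.01 in MHC-IIlo cells. With lactate it was 67.9 ± 31.7 in MHC-IIhi (38.6 to 121) and 20.8 ± 6.27 in MHC-IIlo (12.7 to 28.3). The highest MHC-IIlo value was that of library 5, and the other 4 lay between 12.7 and 25.8.
In each of the 3 settings the ratio was higher in MHC-IIhi, without overlap between the subsets, and in MHC-IIlo the cultures with and without lactate (6.38 to 11.7) did not overlap either. In MHC-IIhi the cultures overlapped, at 22.5 to 39.2 without lactate and 38.6 to 121 with it. The inhibitor sum was mostly Timp2 in fresh cells and in cultured MHC-IIlo. Timp1 was at 0.101 ± 0.0188 of the Timp2 RPKM in fresh MHC-IIlo and at 0.339 ± 0.0742 in fresh MHC-IIhi. In cultured MHC-IIlo Timp1 was at 0.201 ± 0.0658 of it without and 0.251 ± 0.135 with lactate. In cultured MHC-IIhi, where Timp2 was low, Timp1 was at 0.999 ± 0.312 of it without and 0.723 ± 0.281 with lactate. These sums were not tested and are of mRNA, so they do not measure the balance of enzyme and inhibitor.

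**Figure D5:**
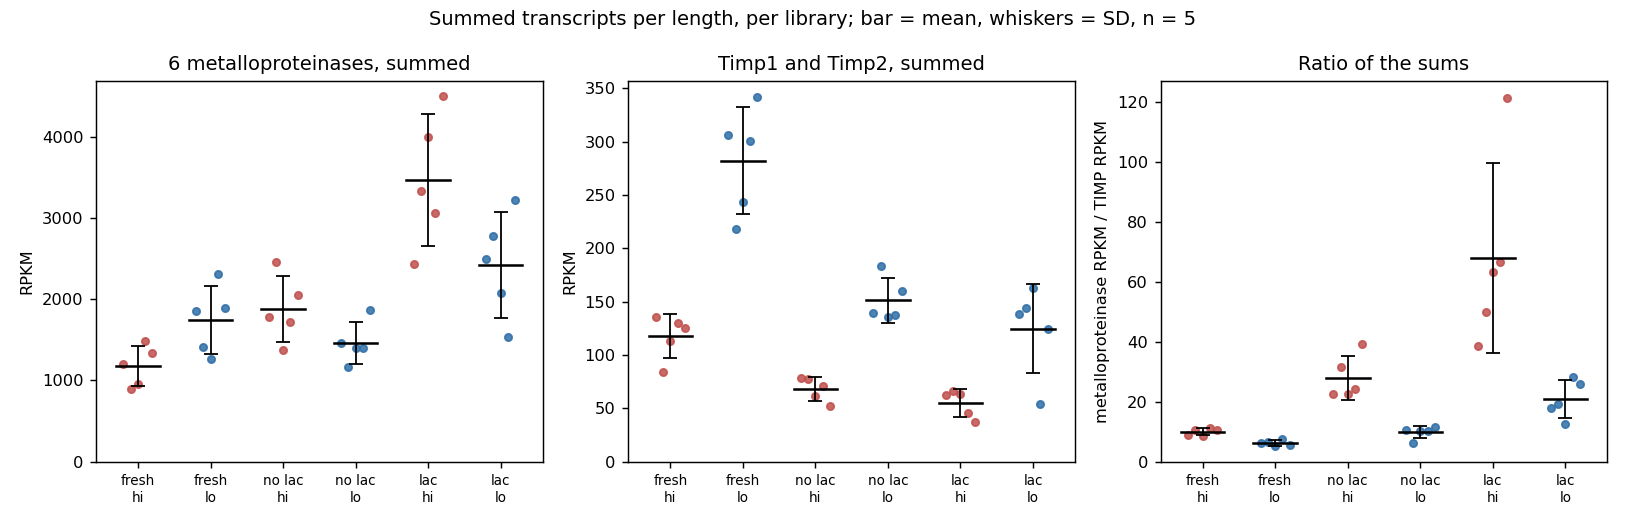
Summed RPKM of the 6 metalloproteinase genes (left), of Timp1 and Timp2 (middle) and their ratio (right) in every library of the 6 groups, MHC-IIhi red and MHC-IIlo blue; points are libraries, bars means and whiskers SD, n = 5, and axes start at 0. The ratio is lowest in fresh MHC-IIlo (5.17 to 7.69) and highest in MHC-IIhi with lactate (38.6 to 121).

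The order of the 6 groups differed from gene to gene. For Mmp8, Mmp12 and Mmp13 both lactate groups came first, and neighbours in the order overlapped except at the bottom: the fresh MHC-IIlo and fresh MHC-IIhi groups of Mmp8 were each set apart from the group above, as was fresh MHC-IIhi of Mmp13. All neighbours of Mmp12 and Timp1 overlapped. For Mmp9, fresh MHC-IIlo stood above fresh MHC-IIhi, and that above the 4 cultured groups, which overlapped. For Mmp19 both fresh groups stood above the cultured ones, and for Timp2 fresh MHC-IIlo stood alone at the top and the 2 cultured MHC-IIhi groups, which overlapped, lay below fresh MHC-IIhi. For Mmp14, fresh MHC-IIlo came first and overlapped both cultured MHC-IIhi groups, and the next 3 groups, fresh MHC-IIhi and both cultured MHC-IIlo groups, overlapped with their neighbours. The step from MHC-IIhi with lactate to fresh MHC-IIhi was without overlap.

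Across the 30 libraries, the closest pair among the 8 genes was Mmp8 and Mmp13 (Pearson's r of log2 CPM = 0.874), followed by Mmp9 and Mmp19 (0.81). Among 5085 well expressed genes, those most like Mmp8 were Clec4d (r = 0.930), H6pd (0.929) and the complement gene C3 (0.923). Timp2 was most like Tgfbr2 (0.987), a receptor of TGF-beta, Gas6 (0.984), a ligand of TAM receptor kinases, and Apoe (0.978). Mmp9 was most like Snx6 (0.952), Mmp19 like Emilin2 (0.950), Mmp14 like Cyth1 (0.926), Mmp12 like the tetraspanin gene Cd9 (0.864) and Timp1 like Eapp (0.815). These values have no test, since the libraries share 6 groups and 1 split between fresh and cultured cells.

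Of 17 other metalloproteinase genes, 7 could be tested in fresh and 8 in cultured cells, at far lower levels. In fresh cells 3 were higher in MHC-IIlo, among them Mmp27 of the same cluster (56.8 against 14.5 CPM, log2 1.97 ± 0.28, adjusted p = 0.000173), and 1 was lower, Mmp25, which encodes a membrane-anchored enzyme of leukocytes (1.54 against 12.9 CPM, log2 -3.06 ± 0.29, adjusted p = 8.31e-06). Mmp25 was lower and Mmp27 higher in MHC-IIlo in both cultured comparisons too, where Mmp25 was at 2.18 against 57.3 CPM without and 1.75 against 45.8 CPM with lactate. With lactate, Mmp3, a stromelysin gene of the cluster, rose in MHC-IIlo (19.3 against 5.55 CPM, log2 1.80 ± 0.36, adjusted p = 0.0192) and 0 of the 8 tested were called in MHC-IIhi by edgeR, DESeq2 or limma (2 at an unadjusted p under 0.05 in edgeR). In culture, 5 of 8 rose and 0 fell in MHC-IIhi, beside 31.6% of all genes higher and 30.4% lower, and 0 rose and 3 fell in MHC-IIlo, beside 27.6% and 29.9%.

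On the chromosome 9 cluster, the gene order was Mmp13, Mmp12, Mmp1b, Mmp3, Mmp1a, Mmp10, Mmp8, Mmp27, Mmp20 and Mmp7. Levels did not follow that order: in MHC-IIhi cells with lactate, Mmp13 was at 1219 RPKM and Mmp12 at 1278 RPKM, Mmp1b between them and Mmp3 at 1.17 RPKM, Mmp3 at 9.89 RPKM, Mmp10 at 13.3 RPKM and Mmp8 at 726.6 RPKM. Mmp10, another stromelysin gene, was higher in fresh MHC-IIlo cells (29.03 against 12.1 CPM, adjusted p = 0.000513). It is named for its place in the cluster.

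Plasmin, made by the plasminogen activators, is one of the proteases that remove metalloproteinase prodomains. Of 15 genes for plasminogen activation and precursor processing, 9 could be tested in fresh cells, and 2 were higher and 0 lower in MHC-IIlo, a share below the 29.2% of all genes called. These were Plau, the urokinase gene (1074 against 420.2 CPM, log2 1.35 ± 0.17, adjusted p = 7.24e-05), and Serpinb2, which encodes an inhibitor of urokinase (26.9 against 11.2 CPM, adjusted p = 0.000516). With lactate, 4 of 10 rose in MHC-IIlo, beside 0.905% of all genes. Among them was the urokinase receptor gene Plaur (248.1 against 133.9 CPM, log2 0.89 ± 0.18, adjusted p = 0.0165). In MHC-IIhi 0 of 10 were called by edgeR, DESeq2 or limma (1 at an unadjusted p under 0.05 in edgeR), beside 0.250% of all genes called by edgeR. In culture, Furin, whose product activates the Mmp14 precursor, fell in MHC-IIlo (log2 -0.82 ± 0.12, adjusted p = 6.65e-06), among 5 of 10 that fell and 2 that rose, beside 29.9% and 27.6% of all genes.

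Of 14 cathepsin genes, lysosomal proteases, 8 of the 12 tested were higher in fresh MHC-IIlo and 1 was lower, beside 29.2% of all genes called in either direction, with Ctsk at 211.2 against 70 CPM and Ctsl at 4254.5 against 1775 CPM. With lactate, edgeR called 0 of 11 cathepsins in either subset, with 0 at an unadjusted p under 0.05 and 0 called by DESeq2 or limma. It also called 0 of 11 ADAM and ADAMTS genes (1 in MHC-IIhi and 3 in MHC-IIlo at an unadjusted p under 0.05; DESeq2 called 0 and 1) and 0 of 14 genes of metalloproteinase partners such as Cd44 and Lrp1 (2 and 4; DESeq2 called 0 and 1). In fresh cells, 4 of 12 ADAM and ADAMTS genes were higher and 1 was lower in MHC-IIlo, beside the same 29.2%, among them Adam9 (582.2 against 300.1 CPM) and Adam17 (248.8 against 197.2 CPM). Adam17 encodes a sheddase that releases membrane-bound cytokines and is inhibited by Timp3. Of 9 other inhibitor genes, 1 could be tested in fresh and 2 in cultured cells, and those called in any comparison, Timp3 and Reck, averaged at most 1.89 and 0.880 CPM.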

How the data were processed

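RNA of 30 libraries was sequenced. Per the submitters' processing notes, Trimmomatic, STAR and featureCounts and the build GRCm38 were used, with versions not given in the sources used here. The authors deposited raw counts per gene and a table of FPKM values, which repeat across libraries in a way no label describes. The GC percent column the authors deposited was not used. Group labels came from the sample titles; cultured columns carry numbers other than the labels' and were mapped to groups only.

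Counts were tested with edgeR 4.0.16 in R 4.3.3 (filterByExpr, TMM, quasi-likelihood F test, Benjamini-Hochberg, threshold 0.05) in 3 fits: 10 fresh, 20 cultured and 20 libraries without lactate. CPM and RPKM were computed from the counts with TMM library sizes over all 30 libraries. Nothing beyond the label of biological replicate says that libraries came from separate mice, so p-values measure the spread between these samples. In the fresh groups, same-numbered libraries deviated together (r = 0.249 to 0.721 over 5 pairs, of which 3 matched best by their own number), so the numbers were taken to pair them. This pairing entered only the replicate block, an alternative, and the main fresh tests were unpaired. No 2 libraries of a group held identical counts.

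Alternatives were DESeq2 1.42.0 size factors in edgeR, its Wald test, no filter, all 30 libraries in 1 fit, limma 3.58.1 on log2(FPKM + 1) or log2(FPKM + 0.1) with and without a filter (FPKM of 1 in 5 libraries), a replicate block, each library left out and, added after the data were seen, plain library totals and the mean lactate effect. The 8 genes and all lists were chosen with earlier results of these data known. Named beside the 8 were up to 2 genes per list with the smallest p among those that passed, of which 1 is not reported here. The fits were tested on simulated data.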

Additional observations from a re-analysis of the deposited data

Results flagged for a closer look

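Of 48 gene and group combinations checked for 1 library far from the rest, 3 stood out, about as many as chance gives at 1 in 20. Timp2 in lactate-treated MHC-IIlo library 5 lay at 144.4 CPM, a gap to the next library of 0.870 of the group's whole range. Mmp14 was low in no-lactate MHC-IIlo library 4 (455.5 CPM, gap 0.760 of the range), and Timp1 was high in no-lactate MHC-IIlo library 3 (38.4 CPM, gap 0.741 of the range).

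The effect of culture differed between the subsets by an interaction test for 5 genes. MHC-IIlo minus MHC-IIhi, the log2 changes differed by -1.17 for Mmp8, -1.78 for Mmp9, -2.01 for Mmp13, -1.21 for Mmp14 and 1.29 for Mmp19. Each passed under all 29 alternatives.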

How the results depend on the processing

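No result that passed reversed under any alternative. Some differences that did not pass changed sign. The log2 difference of Mmp13 between the subsets with lactate was -0.23 and reached 0.27. The log2 change of Mmp12 with culture in MHC-IIhi was 0.11 and reached -0.38. For lactate in MHC-IIhi cells, where 34 genes and 1 of the 8 were called, DESeq2's Wald test called 133 genes and 3 of the 8, its size factors in edgeR 0 of the 8, all 30 libraries in 1 fit 53 genes and limma on unfiltered FPKM 59 genes. In MHC-IIlo cells (202 genes, 1 of the 8), the Wald test called 715 genes and 2 of the 8, and all 30 libraries in 1 fit 531 genes. For the lactate interaction (0 genes), they called 3 and 1, and for the mean lactate effect (450 genes) 896 and 776. The cause was not tested.

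The numbers of cultured columns were not taken to pair the libraries, since no pairing of cultured groups had every correlation over 0.1. That rule does not show that they are unpaired. Libraries matched best by their own number in 4 of 5 between the lactate subsets (r = -0.298 to 0.659). The same held for 4 of 5 between MHC-IIlo without and with lactate (r = 0.014 to 0.603). It was 2 of 4 between the no-lactate subsets and between MHC-IIhi without and with lactate. With the replicate block, lactate called 81 genes in MHC-IIhi, 1111 genes and 2 of the 8 in MHC-IIlo, 2 genes for the interaction and 1874 for the mean effect, and in MHC-IIhi Mmp8 lost its call (adjusted p of 0.0780) while Mmp12 gained one (0.0458). In fresh cells the block changed the call of Mmp19 alone among the 8.

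With 1 library left out, lactate called 8 (without no-lactate MHC-IIhi 6) to 54 genes (without lactate MHC-IIlo 5) and 0 to 1 of the 8 in MHC-IIhi, and 53 (without no-lactate MHC-IIlo 6) to 758 genes (without lactate MHC-IIlo 1) and 0 to 2 of the 8 in MHC-IIlo. It called 0 to 8 genes for the interaction and 259 to 803 for the mean effect. Between the subsets without lactate, 1 to 3 of the 8 were called. On FPKM values the share of called genes that were higher in MHC-IIlo was 58.0% against 44.2% on counts without lactate, and 57.4% against 40.8% with it.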
